A study of Mus musculus with 46 samples.

Results

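The late stage of 2 mouse models of Huntington's disease was compared in glial cells sorted from the striatum. The comparison took in 23 of the 46 libraries of the series, chosen by their genotype and age labels. They fall into 4 groups: 7 pools of R6/2 mice at 12 weeks, 7 pools of their wild-type littermates at 12 weeks, 5 pools of zQ175 mice at 1 year and 4 pools of their wild-type littermates at 1 year. R6/2 mice carry a transgene for a short fragment of human huntingtin with an expanded CAG repeat. In zQ175 mice the expansion sits in the animals' own Htt gene. Mice of every group carried the PDGFRA-EGFP reporter, in which green fluorescent protein follows the Pdgfra promoter. The subventricular zone was discarded, striata of the same genotype were pooled within a litter, and living cells with EGFP fluorescence were sorted and sequenced as bulk RNA. A library therefore stands for a pool of 3 to 4 mice at 12 weeks and of 4 to 8 mice at 1 year, and each line was compared only with its own littermates. The R6/2 and zQ175 mice differed in model and age at once, and the labels name no batch, so model, age and any batch that follows them cannot be told apart in a difference between the 2 effects.

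Pdgfra marks oligodendrocyte progenitors, the cells that divide and mature into myelin-forming oligodendrocytes. Maturation goes through a committed, premyelinating stage and ends with high output of myelin proteins and of the cholesterol and galactolipids of the myelin membrane. In bulk RNA, fewer cells of a type and less RNA per cell cannot be told apart.

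The 12-week libraries held 33337839 to 49166260 expected counts and the 1-year libraries 23338185 to 35458137. The myelin transcript Mbp ran from 5220 to 13200 CPM (the count scaled to library size, with TMM factors) over all pools, so the sorted cells carried much mature oligodendrocyte RNA in addition to progenitor RNA. Pdgfra itself ran from 43.9 to 104 CPM in 12-week wild-type pools, and the 1-year wild-type pools 2 to 5 held 2.34, 16.8, 0.988 and 0.36 CPM. The low Pdgfra level at 1 year goes against a pure progenitor sample, and the cells are therefore called PDGFRA-EGFP-sorted cells. Htt held 4.02, 1.85, 5.7, 15.1 and 2.98 CPM in zQ175 pools 2 to 6 against 9.92, 9.41, 26.5 and 16.8 CPM in 1-year wild type, and fitted Htt in R6/2 did not pass the test (log2 difference 0.18, adjusted p = 0.782). The zQ175 value for Htt was −1.40 (adjusted p = 0.0467), with overlapping pools. It was lost when each line kept its own spread (adjusted p = 0.324). The spread between pools was wider at 1 year: the median SD of log2 CPM was 0.52 in zQ175 and 0.53 in its wild type, against 0.36 in R6/2 and 0.29 in 12-week wild type.

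One edgeR fit of the 4 groups tested 17115 genes, with Benjamini-Hochberg adjustment over all of them and a threshold of 0.05. The R6/2 effect (R6/2 minus its wild type) called 3605 genes, 21.1% of those tested, of which 1934 were higher (11.3%) and 1671 lower (9.76%). That majority turned with upper-quartile scaling (1789 higher, 1906 lower) and with no low-count filter (1624 and 1745). The zQ175 effect (zQ175 minus its wild type) called 1109 genes, or 6.48%, with 606 higher (3.54%) and 503 lower (2.94%). The difference of the effects, R6/2 minus zQ175, called 555 genes, or 3.24%, with 235 positive (1.37%) and 320 negative (1.87%). With upper-quartile scaling the difference split into 186 positive and 494 negative. A gene was counted as shared when the larger of its 2 p-values, adjusted over all genes, passed with the same direction in both models. That gave 399 genes, 2.33% of those tested, of which 234 were higher in both (1.37%) and 165 lower in both (0.964%). The shares over all genes are the background for the counts of list members below. An unadjusted p under 0.05 was held by 5376 genes for R6/2, 3873 for zQ175 and 2930 for the difference.

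That fit gives all groups a common spread, which is narrower than that of the 1-year pools. When each line kept its own spread, a setting chosen after the data were seen, the zQ175 effect called 8 genes, or 0.0467%, and the shared test called 2. The difference kept 239 calls, or 1.4%, and 232 of them were among the 555. The R6/2 effect rose to 5744 calls. The zQ175 counts and the shared counts therefore belong to the common spread. An adjusted p with each line's own spread stands beside many of the named genes, and where it follows a difference it belongs to that difference. With own spread the zQ175 effect was called only for Luzp2, Mfsd2a, Fam83d, Smtn, Gm42756, Tppp, Cpq and A330015K06Rik. A rise or fall called in zQ175 for any other gene belongs to the common spread. With the common spread the zQ175 count also rested on single pools, running from 554 without 1-year wild-type pool 5 to 1922 without 1-year wild-type pool 3. With own spread, the zQ175 and shared counts were both 0 when any 1-year pool other than wild-type pool 3 was left out.

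**Figure D1:**
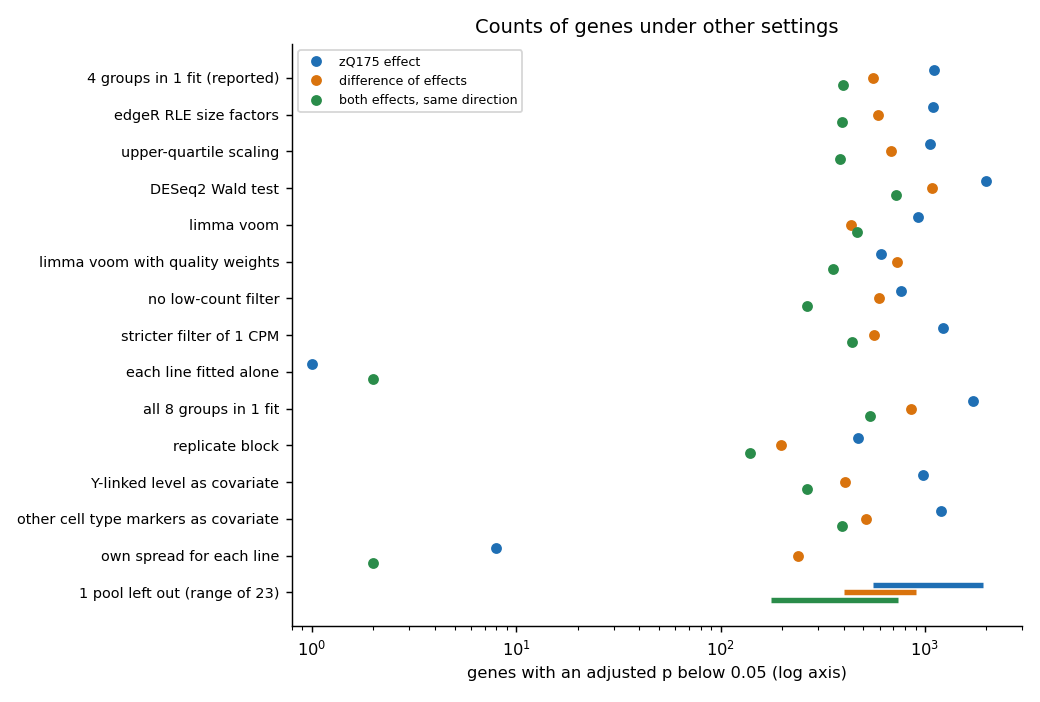
Number of genes called (horizontal log axis, genes) for the zQ175 effect, the difference and the shared test under each setting of the analysis (vertical axis), with bars for the range over the 23 fits that leave out 1 pool. The zQ175 count runs from 1 with each line fitted alone, a setting that gives no difference, to 1988 with DESeq2, and the difference count from 197 to 1077.

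Across genes the 2 effects ran broadly in the same direction. Pearson's r of the log2 fold changes was 0.34 and Spearman's rho 0.362 over the 17115 genes, which share libraries within each effect but none between the effects, and which are not independent replicates. The sign was the same for 63.5% of all genes and for 82.4% of those called for R6/2, and with no low-count filter it was the same for 48.7% of all genes. Genes that rose at least 2-fold in R6/2 (1218 genes) had the same sign in zQ175 in 88.8% of cases, with median log2 fold changes of 2.18 in R6/2 and 1.09 in zQ175. Genes that fell at least 2-fold in R6/2 (544 genes) had the same sign in 70.0%, with medians of −1.48 and −0.38. Of the R6/2 calls, 17.6% were also called for zQ175 in the same direction, and that share was 57.1% of the zQ175 calls. Effects were counted as alike in size for 418 genes (2.44% of those tested and 11.6% of the R6/2 calls). These were called for R6/2 and had a 95% interval of the difference inside 1.5-fold either way. This is a description that asks for neither a call nor the same sign in zQ175, so a small R6/2 effect can count beside no zQ175 change. Among the 555 genes of the difference, 301 had effects of opposite sign, 236 had the same sign with the larger size in R6/2, and 18 had the same sign with the larger size in zQ175.

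**Figure D2:**
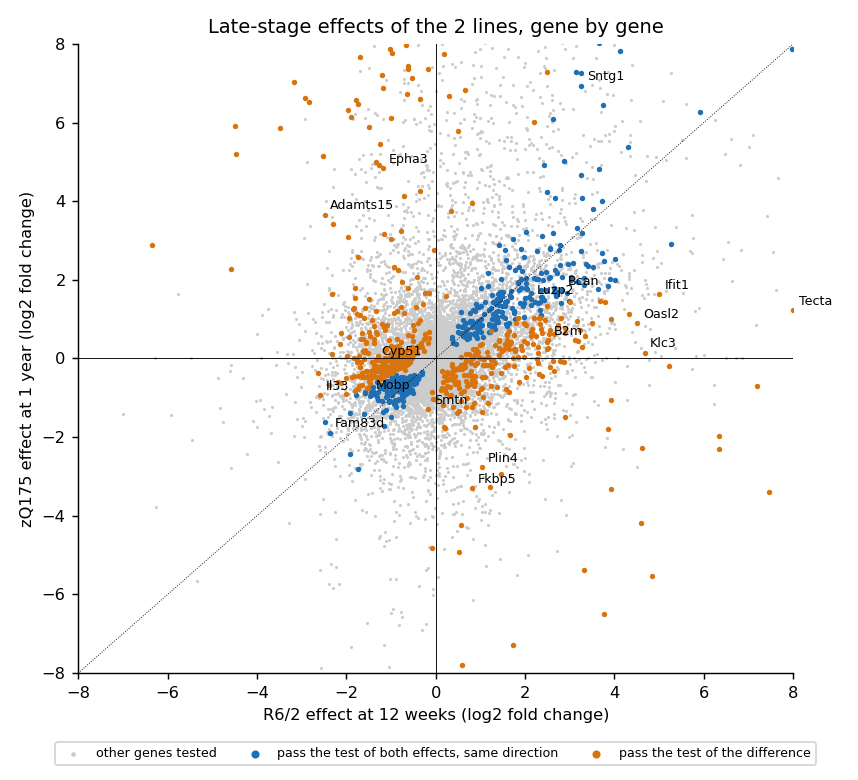
Each point is a gene, with its R6/2 effect at 12 weeks on the horizontal axis and its zQ175 effect at 1 year on the vertical axis (both log2 fold change against wild-type littermates). Colours mark the 399 genes of the shared test and the 555 genes of the difference, and 26 genes lie outside the plotted range of 8 either way.

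The 12 abundant genes with the smallest p-values in the shared test comprised 7 that rose in both models and 5 that fell. Luzp2, a leucine zipper protein expressed in glia, held 43.0, 53.2 and 64.8 CPM (lowest, median, highest) in 12-week wild type and 206, 232 and 293 CPM in R6/2. At 1 year it held 43.6, 65.7, 21.8 and 41.0 CPM in wild type and 129, 106, 142, 118 and 120 CPM in zQ175. Every mutant pool lay above every wild-type pool of its line, a separation that held for 15.9% of all genes in the R6/2 comparison and 4.58% in the zQ175 comparison, in either direction. Luzp2 rose by log2 2.13 ± 0.16 (SE) in R6/2 and 1.51 ± 0.20 in zQ175 (edgeR, larger of the 2 p-values adjusted to 0.000384). With own spread the zQ175 rise held (adjusted p = 0.0477), and the shared test gave an adjusted p = 0.0545.

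Mfsd2a, a transporter of lipids that carry docosahexaenoic acid, rose with Luzp2. It held 24.6, 35.5 and 44.6 CPM in 12-week wild type and 81.6, 115 and 148 CPM in R6/2. The 1-year wild-type pools held 34.4, 47.2, 31.0 and 27.0 CPM and the zQ175 pools 79.3, 78.1, 95.7, 89.7 and 81.2 CPM. The groups did not overlap in either line. Mfsd2a rose by log2 1.72 ± 0.14 in R6/2 and 1.28 ± 0.18 in zQ175 (edgeR, larger p adjusted to 0.000495), and it was 1 of the 2 genes that passed the shared test with own spread (adjusted p = 0.0483). The other was Gm42756, a gene model known by its number, which fell by log2 1.93 in R6/2 and 1.39 in zQ175 (adjusted p = 0.00238 with the common spread and 0.0377 with own spread). It was named after its values were seen.

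Fam83d, a mitotic spindle protein in dividing cells, fell. It held 25.7, 37.4 and 43.6 CPM in 12-week wild type and 5.84, 6.11 and 10 CPM in R6/2. At 1 year, wild-type pools held 69.1, 31.0, 66.3 and 47.2 CPM and zQ175 pools 10.1, 9.08, 17.7, 16 and 19.1 CPM. All mutant pools lay below all wild-type pools of their line, at log2 −2.37 ± 0.21 in R6/2 and −1.89 ± 0.25 in zQ175 (edgeR, larger p adjusted to 0.000384, or 0.0545 with own spread). The other genes of the 12 were Tmem47, Plppr5, Zdhhc2, Ccdc88c and Sntg1, all higher, and Mobp, Dusp10, Map7 and Lpgat1, all lower. Dusp10, a phosphatase of stress-activated kinases, was alike in size as well as in direction. It fell by log2 0.79 in R6/2 and 0.83 in zQ175, and the 95% interval of the difference ran from −0.27 to 0.35. Sntg1 was present in 1 of 4 wild-type pools at 1 year, at 0.0327 CPM, so no fold is given for it in zQ175. None of these 9 genes passed the shared test with own spread, where their adjusted p-values ran from 0.0998 for Tmem47 to 0.124 for Sntg1.

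**Figure D3:**
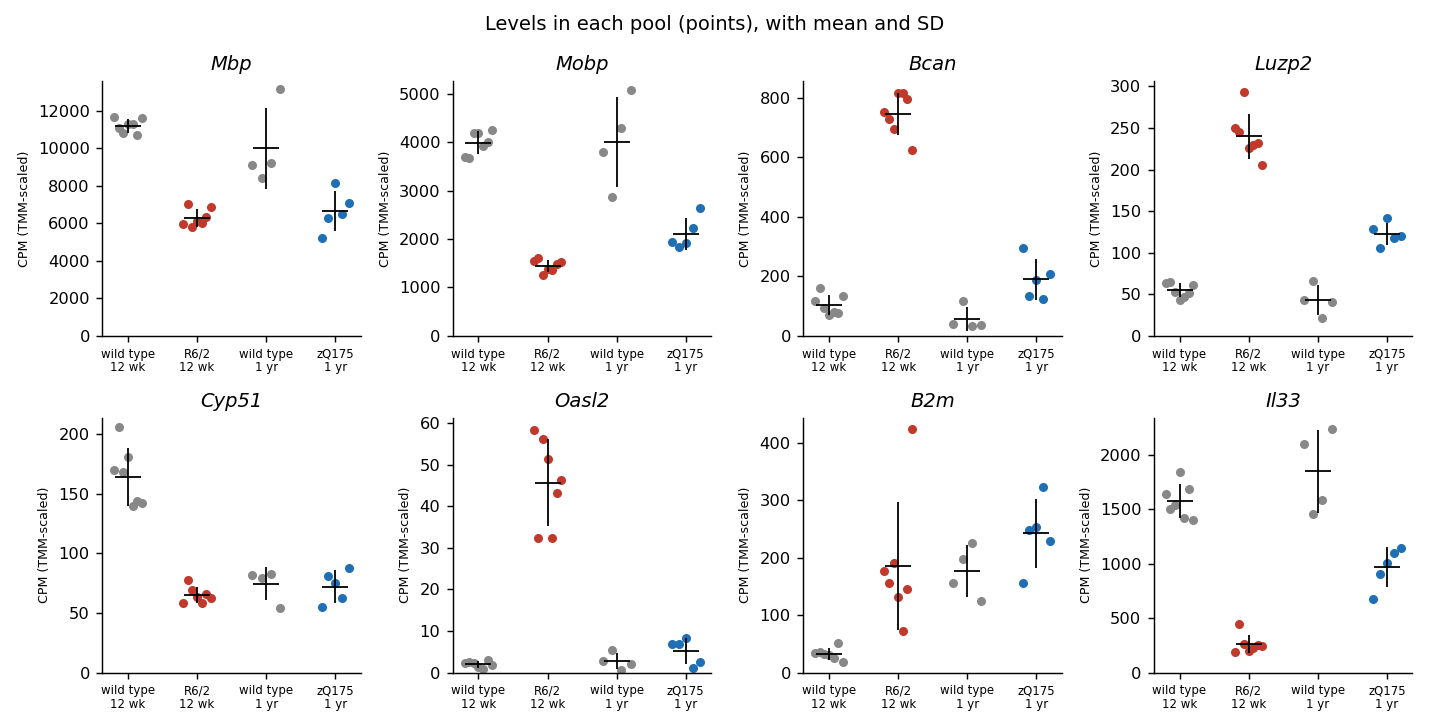
CPM of 8 genes in every pool of the 4 groups (vertical axes; points are pools, bars the mean ± SD). Mbp and Mobp are lower and Bcan and Luzp2 higher in the mutant pools of both lines, Il33 is lower in both, and Cyp51, Oasl2 and B2m separate the 12-week groups and overlap at 1 year.

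Most myelin genes fell in R6/2, and a smaller number fell in zQ175. Of the 27 genes listed for mature oligodendrocytes and myelin, 24 fell in R6/2 and none rose, with a median log2 of −0.90 against 0.012 over all genes. In zQ175, 8 fell and 1 rose (Klk6, a protease of oligodendrocytes), with a median of −0.32 against −0.025 over all genes. The shared test held 7 of them, all lower, among them Mbp, Mobp, Mal, Tspan2, Cldn11 and Hapln2. In 24 members the R6/2 pools lay below all of their wild type and in 7 the zQ175 pools did, where the shares over all genes are 6.67% and 2.43%. The difference called 17 members, all negative, with a median of −0.69 against 0.025 over all genes, and 11 of these calls held with own spread. With own spread no member was called for zQ175, and without 1-year wild-type pool 5 the shared count was 3.

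Mbp, which holds the cytoplasmic faces of the myelin membrane together, held 10700, 11300 and 11700 CPM in 12-week wild type and 5800, 6120 and 7040 CPM in R6/2. The 1-year wild-type pools held 9120, 8430, 9250 and 13200 CPM and the zQ175 pools 5220, 6310, 8150, 6530 and 7070 CPM. The groups of each line did not overlap. Mbp fell by log2 0.83 ± 0.10 in R6/2 and 0.59 ± 0.12 in zQ175 (edgeR adjusted p = 4.24e-07 and 0.00526, the latter 0.215 with own spread), and the difference of −0.24 had a 95% interval from −0.56 to 0.08, inside 1.5-fold, which the interval with own spread (−0.64 to 0.15) was not. Mobp, a structural protein of compact myelin, held 3670, 4010 and 4240 CPM in 12-week wild type against 1250, 1490 and 1600 CPM in R6/2. At 1 year it held 3790, 2870, 4290 and 5070 CPM in wild type against 1940, 1830, 1920, 2230 and 2640 CPM in zQ175. The mutant pools again lay below all wild-type pools, with the larger gap in R6/2. Mobp fell by log2 1.46 ± 0.10 and 0.92 ± 0.13, and its difference of −0.54 did not pass (edgeR adjusted p = 0.0732).

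Mog and Pllp fell in R6/2 and had log2 values of 0.01 and −0.03 in zQ175. Mog, a surface protein of the outer myelin layer, held 1940, 2080 and 2190 CPM in 12-week wild type and 978, 1130 and 1340 CPM in R6/2, and 2500, 2440, 2110 and 2240 CPM in 1-year wild type against 1660, 2840, 1980, 2390 and 2850 CPM in zQ175. The 12-week groups were apart and the 1-year groups overlapped. The differences were −0.89 for Mog (edgeR adjusted p = 0.00297, or 0.0206 with own spread) and −1.05 for Pllp, a myelin membrane protein (0.000496, or 0.00302).

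Genes of the progenitor stage were higher in both models. Of 23 listed, 12 rose in R6/2 and 14 in zQ175, with median log2 values of 1.35 and 1.92, and none fell. The shared test held 10, all higher: Bcan, Vcan, Lhfpl3, Matn4, Xylt1, Serpine2, Sox5, Sox6, Pcdh15 and Cntn1. The difference called no member with edgeR, with 7 of 23 at an unadjusted p under 0.05 (2930 of 17115 over all genes). Bcan, a proteoglycan of the extracellular matrix, held 71.7, 93.7 and 162 CPM in 12-week wild type and 624, 752 and 816 CPM in R6/2. At 1 year it held 40.3, 117, 31.7 and 37.3 CPM in wild type and 294, 133, 189, 123 and 209 CPM in zQ175, with no overlap in either line. Its effects were log2 2.83 ± 0.26 and 1.74 ± 0.32 (edgeR, larger p adjusted to 0.00361, or 0.14 with own spread), and their difference was 1.09 with a 95% interval from 0.28 to 1.89.

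The progenitor count leaned on particular pools at 1 year. zQ175 pool 2 held 95.3 CPM of Pdgfra, against 5.59 to 22.6 CPM in the other 4 zQ175 pools. Without it, 9 oligodendrocyte progenitor genes were called for zQ175, 5 were shared, and the zQ175 median was 1.36. Leaving out 1-year wild-type pool 2, 4 or 5 left 4, 3 or 1 shared members, and with own spread there were none. Without 1-year wild-type pool 3, 21 members were called for zQ175 and 3 were called lower in the difference. In R6/2, Pdgfra did not pass (log2 −0.17, adjusted p = 0.883), nor did it in zQ175 (2.56, edgeR adjusted p = 0.0543). The difference for Pdgfra was −2.74 with a 95% interval from −4.73 to −0.75 (adjusted p = 0.128).

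Committed and premyelinating genes gave a mixed picture. Of 20, 5 rose and 2 fell in R6/2, 5 rose and none fell in zQ175, and the medians were 0.22 and 1.07. The shared test held Neu4, a sialidase, and Bmp4, a secreted growth factor. The difference called Lims2 and 9630013A20Rik, both negative. Lims2, an adaptor of integrin adhesions, fell by log2 1.17 in R6/2 and had a value of −0.13 in zQ175 (difference −1.05, edgeR adjusted p = 0.00044, or 0.00317 with own spread). 9630013A20Rik is annotated as antisense and the library kit does not mark strand, so its reads cannot be told from its partner's, and its difference of −2.09 (0.0475) was lost with own spread (0.128).

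Transcription factors that set oligodendrocyte identity gave no call for the difference. Of 19, 4 rose and 7 fell in R6/2, 1 rose and 2 fell in zQ175, and the edgeR count of 0 for the difference stood beside 4 at an unadjusted p under 0.05. Over all 17115 genes, 21.1% were called for R6/2 and 6.48% for zQ175, and 2930 had such an unadjusted p for the difference. Myrf, which switches on myelin genes, held 581, 797 and 899 CPM in 12-week wild type and 321, 473 and 582 CPM in R6/2. At 1 year it held 448, 482, 651 and 592 CPM in wild type and 424, 272, 293, 444 and 323 CPM in zQ175. The 12-week groups touched at 581 and 582 CPM, and the 1-year groups did not overlap. Myrf fell by log2 0.68 and 0.63 (edgeR, larger p adjusted to 0.0468, or 0.256 with own spread), with a 95% interval of the difference from −0.50 to 0.39. Zfp536 was the other shared member, lower in both. Tcf7l2, a Wnt effector that acts during maturation, rose in R6/2 (log2 0.45, adjusted p = 0.0467) and had a value of 0.23 in zQ175 (0.547), and Sox10 and Olig2 had intervals of the difference from −0.44 to 0.22 and from −0.37 to 0.30. Among 21 genes of the Wnt pathway, 3 rose and 4 fell in R6/2 and 1 rose and 2 fell in zQ175. None was called for the difference (5 at an unadjusted p under 0.05, beside 2930 of 17115 over all genes). Daam2, a regulator of Wnt receptor signalling in oligodendrocytes, was the shared one, at log2 −0.98 and −0.79.

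**Figure D4:**
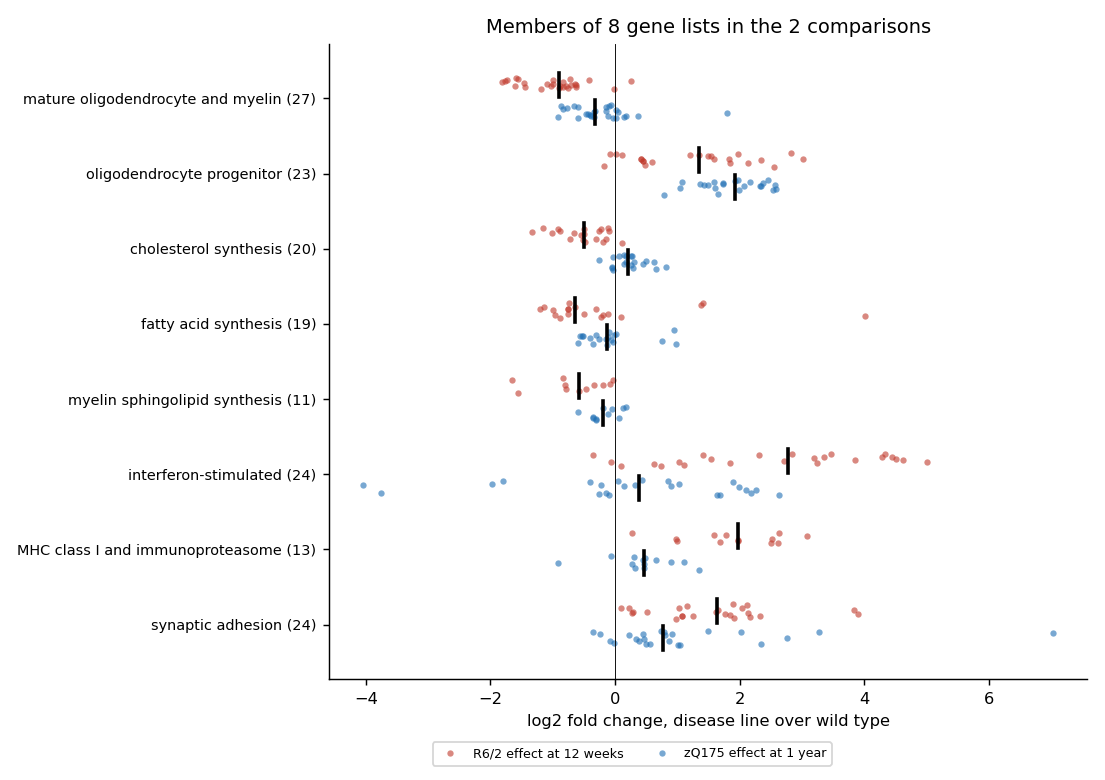
Log2 fold changes of the members of 8 gene lists in R6/2 at 12 weeks and zQ175 at 1 year (points are genes, with the median of each list marked). Progenitor genes lie above 0 for 21 of 23 members in R6/2 and all 23 in zQ175, cholesterol genes lie below 0 for 19 of 20 in R6/2 and 5 of 20 in zQ175, and the interferon median is 2.78 in R6/2 and 0.38 in zQ175.

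Genes of cholesterol synthesis fell in R6/2, and none was called lower in zQ175. Of 20 enzymes of cholesterol synthesis, 11 fell and none rose in R6/2 (median log2 −0.49), whereas in zQ175 none fell and 1, Nsdhl, rose (median 0.21). The difference called 10, all negative (median −0.78), and 6 held with own spread. Leaving out any 1 pool gave 8 to 12. They include Hmgcs1 near the start of the pathway, Idi1, Fdps and Fdft1 in its middle, and Cyp51, Msmo1, Nsdhl, Ebp, Sc5d and Dhcr7 among the later steps.

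Cyp51, which removes a methyl group from lanosterol, held 140, 168 and 206 CPM in 12-week wild type and 58.0, 63.2 and 77.8 CPM in R6/2. The 1-year wild-type pools held 82.1, 79.6, 82.3 and 54.2 CPM and the zQ175 pools 54.7, 81.1, 74.9, 62.2 and 87.7 CPM. The 12-week groups were apart, the 1-year groups overlapped, and both 1-year groups lay below the 12-week wild type. Cyp51 fell by log2 1.34 ± 0.12 in R6/2 and had −0.05 ± 0.15 in zQ175 (difference −1.29 ± 0.19, edgeR adjusted p = 0.00044, or 0.00203 with own spread). Hmgcs1 held 272, 355 and 417 CPM in 12-week wild type and 179, 188 and 221 CPM in R6/2, against 128, 129, 75.3 and 87.7 CPM in 1-year wild type and 105, 123, 133, 106 and 125 CPM in zQ175. Again the 1-year wild-type pools were below all 12-week pools, so the baseline itself differed between the 2 comparisons. The difference for Hmgcs1 was −1.05 (edgeR adjusted p = 0.00153, or 0.00768 with own spread), and that for Dhcr7, the last enzyme of one branch, was −1.12 (0.00045, or 0.00294).

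Hmgcs1 is shown because it was the 1 cholesterol gene whose promoter held the letters TCACNCCAC, a form of the sterol response element. RefSeq (GRCm38.p6) gave a promoter for 15 of the 20 genes, so that share is 6.7%, against 331 of 27025 promoters, or 1.22%, when the 250 bases before the start were searched on both strands. Capitals mark the match in the printed stretch, chr13:119690189-119690247 on the plus strand.
Hmgcs1: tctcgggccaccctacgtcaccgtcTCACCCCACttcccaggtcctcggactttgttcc

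Among 18 regulators and transporters of sterols, 2 rose and 2 fell in R6/2 and 1 rose and 1 fell in zQ175. Over all genes, 21.1% were called for R6/2 and 6.48% for zQ175. Insig1, which holds back sterol synthesis, was lower in both models and passed the shared test, at log2 −1.09 and −0.64. Abca1, a cholesterol exporter, rose in R6/2 by log2 0.99 and had 0.02 in zQ175, a difference of 0.98 (edgeR adjusted p = 0.0375, or 0.105 with own spread). Cyp46a1, which hydroxylates cholesterol for export from the brain, had −0.29 in R6/2 and rose by 1.39 in zQ175, a difference of −1.68 (0.0327, or 0.185). The zQ175 rise of Cyp46a1 (edgeR adjusted p = 0.0194) did not hold with own spread (0.315).

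Enzymes for fatty acids and for the galactolipids of myelin fell in R6/2, and few were called in zQ175. Of 19 fatty acid genes, 11 fell and 3 rose in R6/2, 1 rose in zQ175 (Me1, also in the shared test), and the difference called 4, all negative: Elovl1, Elovl6, Elovl7 and Acsl3. Elovl7, which lengthens very long chains, held 412, 450 and 549 CPM in 12-week wild type and 210, 227 and 290 CPM in R6/2, against 333, 269, 294 and 226 CPM in 1-year wild type and 246, 325, 259, 289 and 306 CPM in zQ175. The 12-week groups were apart and the 1-year groups overlapped (difference −0.99 ± 0.15, edgeR adjusted p = 0.000496, or 0.00302 with own spread). Acsl3, which activates long-chain fatty acids, differed by −0.98 (0.00044, or 0.00294).

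Of 11 genes of myelin sphingolipid synthesis, 8 fell in R6/2 and 2 in zQ175, and the difference called 4, all negative, the same count with own spread: Fa2h, Ugt8a, Gal3st1 and Cers2. Fa2h, which hydroxylates the fatty acids of galactolipids, had the smallest p of the whole difference. It held 1120, 1320 and 1470 CPM in 12-week wild type and 370, 401 and 507 CPM in R6/2, against 842, 797, 770 and 976 CPM in 1-year wild type and 640, 602, 688, 732 and 636 CPM in zQ175. It fell in both lines with no overlap, by log2 1.65 ± 0.08 and 0.36 ± 0.10, and the difference was −1.29 ± 0.13 (edgeR adjusted p = 1.16e-05, or 6.1e-05 with own spread). The zQ175 fall of Fa2h was called with the common spread only (edgeR adjusted p = 0.0382, or 0.313 with own spread). Fa2h did not pass the shared test (larger edgeR p adjusted to 0.0708). Ugt8a, the galactosyltransferase that makes galactocerebroside, held 1980, 2220 and 2350 CPM in 12-week wild type, 561, 689 and 993 CPM in R6/2, 690, 522, 696 and 666 CPM in 1-year wild type and 536, 593, 488, 528 and 456 CPM in zQ175. The 1-year wild type already lay within the range of the R6/2 pools or below it (difference −1.26, adjusted p = 0.000248, or 0.000287).

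**Figure D5:**
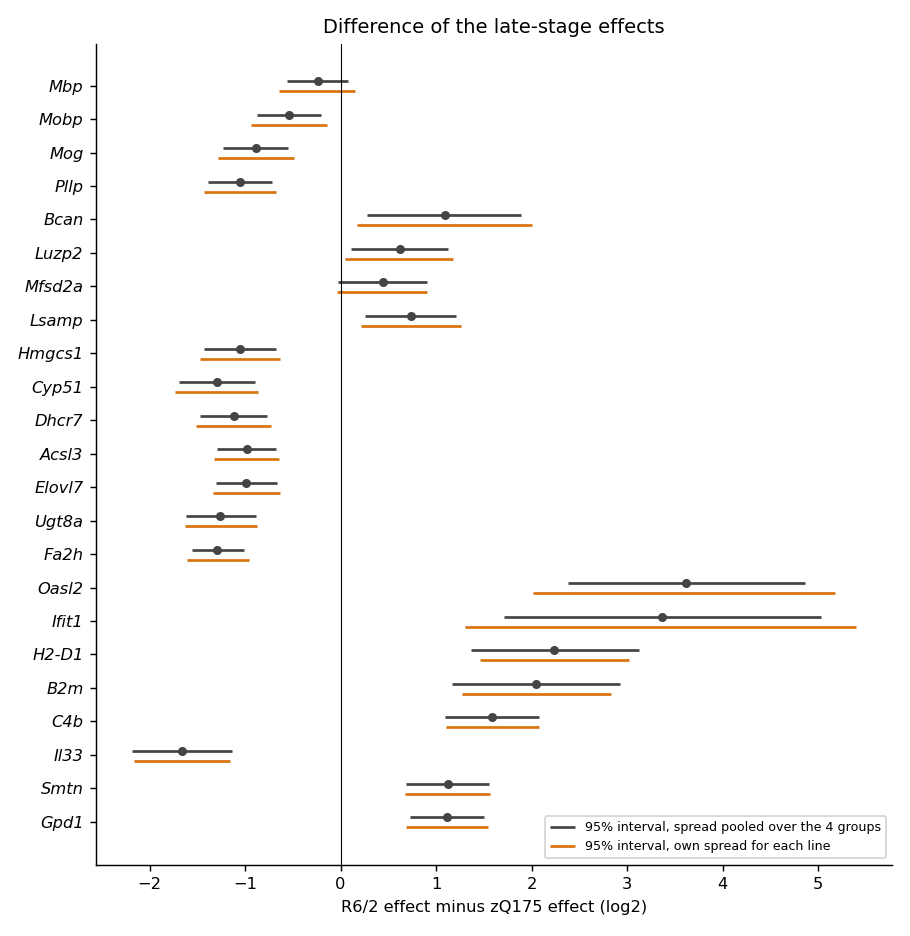
Difference of the late-stage effects, R6/2 minus zQ175, with its 95% interval for 23 genes (log2, horizontal axis), with the common spread and with each line's own spread. Mbp and Mfsd2a have intervals across 0, while Fa2h, Cyp51, B2m, C4b, Il33 and Smtn stay on one side with either spread.

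Interferon-stimulated genes rose in R6/2, and none was called in zQ175. Of 24, 18 rose and none fell in R6/2 (median log2 2.78), and in 15 of them the groups did not overlap, where the share over all genes is 9.21%. For zQ175 the edgeR count was 0 and the median 0.38. An unadjusted p under 0.05 was held by 11 members, beside 3873 of 17115 over all genes. The difference called 7, all positive (median 2.09), among them Ifit1, Isg15, Oasl2, Ifi27, Bst2 and Parp14, and 3 held with own spread. Leaving out any 1 pool gave 4 to 9. Parp14, a member of the ADP-ribosyltransferase family, differed by 5.67 (adjusted p = 0.0477, or 0.0993 with own spread), and its call was lost in 18 of 23 fits that left out a pool, at 2.51 (0.419) without 1-year wild-type pool 4. The count of 0 for zQ175 depended on single pools: it was 7, with 5 shared, without 1-year wild-type pool 3, and 4, with 3 shared, without zQ175 pool 2.

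Oasl2, an antiviral protein, held 0.746, 2.24 and 3.14 CPM in 12-week wild type and 32.3, 46.2 and 58.4 CPM in R6/2, against 2.81, 5.32, 0.697 and 2.09 CPM in 1-year wild type and 6.81, 6.93, 8.28, 1.13 and 2.59 CPM in zQ175. Its zQ175 values reached above the wild type in 3 of 5 cases but stayed well under R6/2 (difference 3.62, adjusted p = 0.000973, or 0.0208).

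Ifit1, which binds viral RNA, held 1.3, 1.65 and 6.15 CPM in 12-week wild type and 53.2, 68.9 and 102 CPM in R6/2, against 3.5, 8.92, 0 and 1.33 CPM in 1-year wild type and 3.02, 8.97, 19.4, 9.28 and 13.9 CPM in zQ175. All R6/2 pools were above all others. Genes of the Ifit family are close copies, and reads could be split between them. The difference of 3.37 (edgeR adjusted p = 0.0192) was lost with own spread (0.124) and without 1-year wild-type pool 3 (0.0936). A form of the interferon-stimulated response element is GAAA, any 2 bases, then GAAA. It was held by 7 of the 17 list promoters in RefSeq (41.2%), against 936 of 27025 (3.46%). Of those 7 genes, Ifit1, Isg15, Bst2 and Rsad2 are shown because they had the smallest edgeR adjusted p-values for the difference. Capitals mark matches, overlapping ones run together, on either strand. The stretches are chr19:34640779-34640838 (plus), chr4:156200850-156200909 (minus), chr8:71537562-71537621 (minus) and chr12:26456538-26456597 (minus) of GRCm38.p6.
Ifit1: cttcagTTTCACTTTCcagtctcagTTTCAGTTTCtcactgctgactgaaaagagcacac
Isg15: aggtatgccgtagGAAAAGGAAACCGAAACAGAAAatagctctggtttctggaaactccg
Bst2: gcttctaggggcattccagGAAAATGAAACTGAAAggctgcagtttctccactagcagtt
Rsad2: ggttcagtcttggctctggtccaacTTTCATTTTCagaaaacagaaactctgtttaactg

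Genes of MHC class I presentation, which carry peptides to the cell surface, followed the same order. Of 13, 12 rose in R6/2 (median log2 1.97) and 1, the peptide transporter Tap2, rose in zQ175 and passed the shared test (median 0.46). The difference called 6, all positive: H2-D1, H2-K1, B2m, Tap2, Psmb8 and Psme1, of which 5 held with own spread. B2m, the light chain of class I, held 18.1, 32.3 and 52.3 CPM in 12-week wild type and 73.2, 156 and 423 CPM in R6/2, against 156, 198, 226 and 124 CPM in 1-year wild type and 155, 248, 254, 323 and 228 CPM in zQ175. The 1-year wild type already lay above all 12-week wild-type pools and within the R6/2 range. The difference was 2.05 for B2m (edgeR adjusted p = 0.00736, or 0.00317 with own spread) and 2.24 for H2-D1, a class I heavy chain (0.00326, or 0.00147). H2-D1 and H2-K1 are similar in sequence, and reads could be split between them.

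Among 9 genes reported for reactive oligodendrocytes, 4 rose and 1 fell in R6/2, and 2 fell in zQ175, Il33 and Cdkn1a. Il33, a nuclear alarmin of oligodendrocytes, was the 1 shared member. It held 1400, 1540 and 1840 CPM in 12-week wild type and 187, 249 and 446 CPM in R6/2, against 2100, 1460, 1590 and 2240 CPM in 1-year wild type and 679, 910, 1010, 1100 and 1150 CPM in zQ175. No groups overlapped. Il33 fell by log2 2.59 ± 0.16 and 0.93 ± 0.19, with a difference of −1.66 (edgeR adjusted p = 0.00044, or 0.000287 with own spread). In the shared test its larger edgeR p was adjusted to 0.00821, or 0.111 with own spread. C4b, a complement protein, held 71.9, 75.3 and 80.9 CPM in 12-week wild type, 145, 327 and 339 CPM in R6/2, 110, 138, 86.6 and 126 CPM in 1-year wild type and 114, 133, 144, 201 and 132 CPM in zQ175. It rose in R6/2 and overlapped at 1 year (difference 1.59, adjusted p = 0.00044, or 0.000524). Serpina3n, a protease inhibitor, had a difference of 2.33 (0.0214) that was lost with own spread (0.195).

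Of 18 immediate early genes, 9 rose and 2 fell in R6/2, 1 rose in zQ175, and the difference called Btg2 and Ier2, both positive, at 1.15 (edgeR adjusted p = 0.0255, or 0.0436 with own spread) and 1.53 (0.0318, or 0.0573). Of 15 genes of the integrated stress and unfolded protein response, 1 rose and 4 fell in R6/2 and none was called for zQ175 (3 at an unadjusted p under 0.05). Of 10 heat shock genes, 2 fell in R6/2 and 1 in zQ175, where Hsp90aa1 was shared, at log2 −0.76 and −0.86. Of 19 cell cycle genes, 2 rose in R6/2 and none was called for zQ175 (8 at an unadjusted p under 0.05). None of the last 3 lists held a gene called for the difference, where 3, 0 and 9 members had an unadjusted p under 0.05. Over all 17115 genes, 2930 had such a p for the difference and 3873 for zQ175. The shares called over all genes were 21.1% for R6/2 and 6.48% for zQ175.

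Genes of synaptic adhesion, proteins that join neurons or glia across contacts, rose for the most part in R6/2, and fewer rose in zQ175. Of 24, 17 rose in R6/2 and 8 in zQ175 and none fell, with medians of 1.64 and 0.77. The shared test held 4, all higher, among them Cadm2, Lsamp and Slitrk1. Lsamp held 17.4, 21.1 and 26.3 CPM in 12-week wild type and 62, 64.9 and 72 CPM in R6/2, against 39.2, 69.6, 36.7 and 29.2 CPM in 1-year wild type and 88.7, 80.4, 90.0, 63.5 and 87.7 CPM in zQ175. The 12-week groups were apart and 1 wild-type pool reached into the zQ175 range (log2 1.65 and 0.91, edgeR larger p adjusted to 0.00722, or 0.166 with own spread). The difference called 1 member, Slitrk3, at 1.66 (edgeR adjusted p = 0.00986, or 0.0732 with own spread), where 3.24% of all genes were called. Leaving out any 1 pool gave 2 to 8 shared members, and own spread gave none.

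Of 24 glutamate and GABA receptor subunits, 8 rose and 1 fell in R6/2 and 2 rose and 1 fell in zQ175. The 1 shared member was Grm3, a metabotropic glutamate receptor, lower at log2 −1.59 and −0.89. Gabrg1, a GABA-A receptor subunit, rose by log2 2.14 in R6/2 and had 0.66 in zQ175 (difference 1.48, edgeR adjusted p = 0.00876, or 0.0428 with own spread). Grik1, a kainate receptor subunit, went the other way. It held 9.44, 11.3 and 18.8 CPM in 12-week wild type and 5.02, 7.39 and 9.34 CPM in R6/2, against 0.615, 0.588, 1.51 and 0.396 CPM in 1-year wild type and 5.36, 2.15, 1.53, 2.93 and 2.80 CPM in zQ175. Mutant pools were lower in the first line and higher in the second, with no overlap in either (difference −2.70, adjusted p = 0.00179, or 0.159 with own spread).

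A further set of genes had the larger effect in zQ175: 143 of the 555 genes of the difference. Smtn, an actin-binding protein, held 33.3, 46.8 and 48.9 CPM in 12-week wild type and 25.7, 41.1 and 47.0 CPM in R6/2, against 87.9, 61.2, 96.9 and 97.6 CPM in 1-year wild type and 39.0, 31.6, 30.5, 40.9 and 34.4 CPM in zQ175. The 12-week groups overlapped and the zQ175 pools lay below all of their wild type. Smtn fell by log2 1.28 ± 0.16 in zQ175, a call that held with own spread (edgeR adjusted p = 0.00024, or 0.0322), and had −0.17 ± 0.13 in R6/2 (difference 1.12, 0.00305, or 0.00604). Gpd1, an enzyme that links glycolysis to glycerolipids, rose in R6/2 and fell in zQ175. It held 111, 140 and 158 CPM in 12-week wild type and 162, 201 and 228 CPM in R6/2, against 126, 107, 143 and 187 CPM in 1-year wild type and 75.8, 77.5, 100, 94.8 and 114 CPM in zQ175. The 12-week groups were apart and 1 zQ175 pool reached the wild-type range (log2 0.51 and −0.61, difference 1.11, adjusted p = 0.00105, or 0.00578). The zQ175 fall of Gpd1 (edgeR adjusted p = 0.0144) did not hold with own spread (0.216).

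Itih5 and Fbln7, both proteins of the extracellular matrix, went the opposite way. Itih5 fell by log2 0.86 in R6/2 and rose by 1.22 in zQ175 (difference −2.08, edgeR adjusted p = 0.000839, or 0.00232 with own spread). Fbln7 fell by 1.48 and rose by 1.51 (difference −2.99, 0.00044, or 0.00315). In zQ175 neither rise held with own spread (0.132 and 0.22). Fkbp5 and Plin4, genes that respond to glucocorticoids and to lipid load, had large positive differences of 4.12 (0.00309, or 0.031) and 3.80 (0.00196, or 0.0191). Fkbp5 held 6.57, 1.50, 28.7 and 42.4 CPM in 1-year wild type and 0.689, 0.963, 4.34, 0.711 and 3.16 CPM in zQ175, and Plin4 held 33.6, 8.62, 109 and 117 CPM against 10.9, 7.93, 4.71, 17.7 and 8.41 CPM. In both genes wild-type pools 4 and 5 stood high and wild-type pool 3 lay within the zQ175 range. Cdkn1a, an inhibitor of cell division, held 66.9, 70.8, 204 and 1090 CPM in 1-year wild type, and its difference was 3.62 (0.00823, or 0.0923). Without pool 5, which held the 1090 CPM, the difference was 1.96 and still passed (0.0372).

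The other largest differences rested on groups of low level, with 1-year wild-type means from 0.0327 CPM for Epha3 to 4.34 CPM for Edn3. Tecta and Klc3 were positive, at 6.79 and 4.53, and Adamts15, Epha3, Scube1, Spry4, Srpx2, Scara5, Tbx18 and Edn3 were negative, at −6.14 to −3.33. Klc3, a light chain of the kinesin motor, held 0, 0.245 and 0.311 CPM in 12-week wild type and 3.17, 5.90 and 7.84 CPM in R6/2, against 3.65, 7.09, 4.18 and 1.04 CPM in 1-year wild type and 2.64, 2.59, 6.48, 2.84 and 7.54 CPM in zQ175. Only the 12-week wild type was low (edgeR adjusted p = 0.000838, or 0.00147 with own spread). Tecta turned on 1 wild-type pool at 1 year that held 1.80 CPM while the other 3 held 0, and its difference was −0.35 (adjusted p = 0.794) without that pool. Adamts15 moved from −6.14 to −10.58 without 1-year wild-type pool 2, Epha3 from −6.02 to −9.63 without 1-year wild-type pool 3, and Spry4 from −4.04 to −2.66 (adjusted p = 0.0999) without zQ175 pool 2. Of the 8 negative genes, none held with own spread (adjusted p from 0.109 to 0.255). zQ175 pool 2 stood far above the other zQ175 pools for Epha3, Spry4, Scara5, Tbx18 and Edn3.

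Markers of other cells moved with some of these results. All 13 fibroblast markers were below 0 in R6/2, 9 of them called lower, and none was called in zQ175, with medians of −1.32 and 0.29. Their summed level ran from 138.4 to 434.0 CPM in R6/2 against 348.9 to 948.0 CPM in 12-week wild type, and from 157.9 to 902.4 CPM in zQ175 against 131.8 to 482.1 CPM in 1-year wild type. The difference called 3 fibroblast markers, Col1a1 (−2.77, edgeR adjusted p = 0.00485, or 0.0221 with own spread), Slc6a13 and Islr. The extracellular matrix genes that fell in R6/2 and were higher in zQ175 moved with them, and the part of fibroblasts in those differences was not tested. Of 14 endothelial markers, 5 fell in R6/2 and none was called in zQ175. Only Kdr of these markers was called for the difference (−2.21, edgeR adjusted p = 0.0081, or 0.0945 with own spread), where 3.24% of all genes were called. Their summed level was 212.2 to 274.2 CPM against 302.0 to 404.8 CPM at 12 weeks and 160.7 to 276.2 CPM against 274.5 to 407.9 CPM at 1 year.

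Microglial markers were lower in 15 of 16 cases in R6/2 and 14 of 16 in zQ175, with 4 called in R6/2 and none in zQ175, and none called for the difference. Their summed level was 85.33 to 237.4 CPM in R6/2 against 128.7 to 386.8 CPM, and 105.7 to 321.6 CPM in zQ175 against 238.5 to 423.7 CPM in wild type, and the part of microglia in the interferon and MHC results was not tested. Of 11 mural markers, 2 fell in R6/2, where 9.76% of all genes fell, and none was called in zQ175. Of 16 astrocyte markers, 4 rose and 8 fell in R6/2 and 2 rose in zQ175, with S100b, which oligodendrocytes also express, shared at log2 2.64 and 1.80, and none was called for the difference. Of 10 markers of striatal projection neurons, 3 rose and 2 fell in R6/2 and 1 rose and 1 fell in zQ175, and Adcy5 was called for the difference (−0.93, edgeR adjusted p = 0.0117, or 0.0243 with own spread). Of 9 general neuronal markers, 1 rose in R6/2 and none was called otherwise. The summed neuronal level was 81.47 to 159.5 CPM in R6/2 against 39.18 to 54.92 CPM, and 102.0 to 186.5 CPM in zQ175 against 49.16 to 134.4 CPM. Tubb3 made up most of that sum, at 70.7 to 153 CPM in R6/2 against 34.2 to 48.4 CPM in its wild type. In zQ175 Tubb3 held 93.5 to 179 CPM, against 45.8 to 131 CPM in wild type. Of the 9 markers, 5 lay above 0 and 4 below 0 in R6/2, and 6 above and 3 below in zQ175. The part of neurons in the rise of the synaptic adhesion genes was not tested.

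Of 9 neuroblast markers, 2 rose and 1 fell in R6/2, where 21.1% of all genes were called. Only Cd24a of them was called for the difference (2.25, edgeR adjusted p = 0.0268, or 0.0754 with own spread), where 3.24% of all genes were called. Of 5 ependymal markers tested, 2 fell in R6/2, Foxj1 and Rarres2, and both were called for the difference, Rarres2 at −2.42 (0.00823, or 0.0101). Of 5 red blood cell genes, 4 fell in R6/2 and none was called otherwise. Of 13 mitochondrially encoded mRNAs, 1 fell in R6/2 and none was called otherwise, and their medians were close in the models, at −0.46 and −0.48. The Y-linked genes were called in no contrast. Their summed level was 0 CPM in R6/2 pools 2, 3, 5 and 6 and in zQ175 pool 6. All wild-type pools held some, from 42.43 CPM at 12 weeks and from 7.447 CPM at 1 year. Y-linked RNA thus differed between pools and was unevenly spread over genotype, mainly in the R6/2 comparison. With the Y-linked level as covariate, the R6/2 effect called 2477 genes and the difference 406, against 3605 and 555 without it. With other cell type markers as covariate, the difference called 512 genes, and 368 of the 555 were among them.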

How the data were processed

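PDGFRA-EGFP-sorted striatal cells were profiled with an unstranded poly-A kit (TruSeq RNA v2), per the labels' protocols. The authors deposited estimated gene counts (expected counts), made with STAR 2.5.2b and RSEM 1.3.0 per the submitters' processing notes. The mouse build is not given in the sources used here. Of 53801 gene IDs, 53706 matched GENCODE M21 (GRCm38), which gave symbols, and 9.4% of values were not whole. In nonzero values the whole share was 74.6 to 78.0% at 12 weeks and 69.0 to 74.1% at 1 year.

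Counts were rounded and fitted in edgeR 4.0.16 (R 4.3.3) with TMM scaling, filterByExpr at a minimum count of 10, and the robust quasi-likelihood test over 4 group means. Contrasts were each line against its littermates, their difference, and a shared test on the larger p of the 2 effects. The threshold was an adjusted p of 0.05. The script was tested on simulated data that had the same spread in every group. That test therefore cannot say how the common spread serves the wider 1-year pools. Own spread means that each line kept its own dispersion, with Welch-Satterthwaite degrees of freedom for the difference. Limma 3.58.1, DESeq2 1.42.0, other scalings, filters, covariates and leaving out each pool were alternatives.

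Named genes were 10 set by name, the 12 with the smallest shared p, the 8 largest differences each way and 6 led by zQ175 among called genes (mean of at least 5 CPM in a group), and the 2 members of each pathway list and 1 of each marker list with the smallest p. Results of some chosen genes are not reported here, although lists are counted whole. Of 475 list entries 16 were not tested. The members and lists were chosen with earlier results of these data known. Each replicate is a pool of different mice. Same-numbered pools of mutant and wild type correlated at −0.17 to 0.25, so the numbers were not taken as pairs. The p-values measure only the spread between pools. Promoters came from RefSeq.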

Additional observations from a re-analysis of the deposited data

Results flagged for a closer look

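The effects of the 2 models differed for 555 genes by the edgeR test of the difference itself (R6/2 minus zQ175, log2, common spread), and 47 of the named genes are among them. For myelin and committed-stage genes the differences were −0.89 for Mog, −1.05 for Pllp, −1.05 for Lims2 and −2.09 for 9630013A20Rik. For lipid genes they were −1.05 for Hmgcs1, −1.29 for Cyp51, −1.12 for Dhcr7, −1.68 for Cyp46a1, 0.98 for Abca1, −0.98 for Acsl3, −0.99 for Elovl7, −1.29 for Fa2h and −1.26 for Ugt8a. For interferon, MHC and reactive genes they were 5.67 for Parp14 (2.51, adjusted p = 0.419 with edgeR, without 1-year wild-type pool 4), 3.62 for Oasl2, 3.37 for Ifit1, 2.24 for H2-D1, 2.05 for B2m, −1.66 for Il33, 1.59 for C4b and 3.62 for Cdkn1a. Receptor, adhesion and immediate early genes gave −2.70 for Grik1, 1.48 for Gabrg1, 1.66 for Slitrk3, 1.15 for Btg2 and 1.53 for Ier2. Genes named for the size of the difference gave 6.79 for Tecta, 4.53 for Klc3, 4.12 for Fkbp5, 3.80 for Plin4, −6.14 for Adamts15, −6.02 for Epha3, −4.33 for Scube1, −4.04 for Spry4, −4.02 for Srpx2, −3.96 for Scara5, −3.62 for Tbx18 and −3.33 for Edn3. Genes led by zQ175 gave −2.99 for Fbln7, −2.08 for Itih5, 1.11 for Gpd1 and 1.12 for Smtn. Genes listed as markers of other cells gave −0.93 for Adcy5, 2.25 for Cd24a, −2.21 for Kdr, −2.77 for Col1a1 and −2.42 for Rarres2.

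In 26 of 168 sets of a named gene and a group, 1 pool lay far from the others by Dixon's criterion, which chance meets in about 1 in 20 sets. Genes named only as list members were not among these sets, and they can hold outlying pools too. B2m, for example, held 423 CPM in R6/2 pool 7 and 73.2 to 190 CPM in the other R6/2 pools. zQ175 pool 2 was high for Pdgfra (95.3 CPM), Tcf7l2 (86.6), Zdhhc2 (59.1), Epha3 (3.91), Spry4 (18.5), Scara5 (10.5), Tbx18 (12.1) and Edn3 (34.8). zQ175 pool 5 stood apart for Ccdc88c (7.57 CPM). R6/2 pool 7 stood apart for Pdgfra (21.3 CPM), Sox10 (340), Cdkn1a (130) and Smtn (25.7), and R6/2 pool 3 for Hmgcs1 (221 CPM). Among 1-year wild-type pools, pool 3 stood apart for Pdgfra (16.8 CPM), Sntg1 (0.0327), Tecta (1.8) and Epha3 (0.131), pool 2 for Adamts15 (0.269) and Fbln7 (8.46), pool 4 for Parp14 (7.96) and pool 5 for Cdkn1a (1090). Among 12-week wild-type pools, pool 3 stood apart for Srpx2 (12.3 CPM) and Fbln7 (25.6), pool 4 for Lpgat1 (266) and pool 6 for Ifit1 (6.15).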

How the results depend on the processing

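All values are counts of genes unless named otherwise. The R6/2 effect gave 7853 calls with voom quality weights, 5704 with each line fitted alone and 5744 with own spread. The zQ175 effect gave 1988 with DESeq2, 610 with voom quality weights, 1718 with all 8 groups in 1 fit, 8 with own spread and 1 with each line fitted alone. The difference gave 1077 with DESeq2, 854 with all 8 groups and 239 with own spread. The shared test gave 725 with DESeq2, 265 with no low-count filter, 264 with the Y-linked level as covariate, and 2 both with each line fitted alone and with own spread. Effects alike in size numbered 984 with voom quality weights, 259 with no filter, 169 with the Y-linked covariate and 262 with other cell type markers as covariate. Pearson's r was 0.458 with voom quality weights, 0.171 with no filter, 0.452 with the stricter filter and 0.499 with each line fitted alone, and the same-sign share of R6/2 calls was 72.1% with voom quality weights. The cause of these shifts was not tested. With the replicate number as a block (replicate block), although the labels give the number no shared litter or day, the zQ175 effect gave 471, the difference 197, the shared test 139 and alike effects 268.

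Leaving out 1 pool at a time gave 3153 to 4079 for R6/2, 554 to 1922 for zQ175, 404 to 908 for the difference, 176 to 739 for the shared test, 320 to 573 for alike effects, r from 0.258 to 0.391 and a same-sign share from 78.3 to 84.1%. The pools that moved a count by over 1.5 times were R6/2 pool 7 (difference 908 without it) and 1-year wild-type pools 2 (shared 248), 3 (zQ175 1922, shared 739), 4 (zQ175 645) and 5 (zQ175 554, shared 176). With own spread as well, leaving out 1-year pools gave 5743 to 5769 for R6/2, 0 to 260 for zQ175, 133 to 262 for the difference, 0 to 205 for the shared test, 296 to 460 for alike effects, r from 0.262 to 0.394 and a same-sign share from 73.0 to 77.7%. The 260 and 205 came without 1-year wild-type pool 3, and both counts were 0 when any other 1-year pool was left out. Without that pool the Tecta difference reversed to −0.347 (adjusted p = 0.794 with edgeR), and over the other omissions it reached 7.69. Of 47 named differences, 47 were kept with RLE, with the stricter filter and with DESeq2, and 46 with upper-quartile scaling. All 8 groups in 1 fit kept 44, no low-count filter 40, the Y-linked covariate 39 and other cell type markers as covariate 38. The block kept 30, voom 29, own spread 28 and voom quality weights 27. In all 23 fits that left out a pool, 36 were kept. Of the other calls, the number of these fits that lost it was 18 for Parp14, 17 each for Abca1 and 9630013A20Rik, 14 for Edn3, 9 each for Spry4 and Cyp46a1, 7 for Ier2, 2 for Btg2 and 1 each for Cd24a, Ifit1 and Tecta.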

Other observations

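Of the 8 genes called for zQ175 with own spread, 3 have not been described, and they are named here after their values were seen. None of the 8 calls remained with own spread when a 1-year pool other than wild-type pool 3 was left out. Tppp, a protein of oligodendrocytes that promotes tubulin polymerisation, fell in both models, by log2 1.57 ± 0.15 (SE) in R6/2 and 0.87 ± 0.18 in zQ175 (edgeR adjusted p = 1.85e-08 and 0.00575, the latter 0.0477 with own spread). Cpq, a secreted carboxypeptidase, rose in both, by 1.16 ± 0.19 and 1.84 ± 0.25 (edgeR adjusted p = 4.55e-05 and 0.00024, the latter 0.0477 with own spread). A330015K06Rik, known by its clone number, fell by 1.15 ± 0.20 and 1.71 ± 0.25 (edgeR adjusted p = 0.000129 and 0.000595, the latter 0.0477 with own spread). All 3 passed the shared test with the common spread, and with own spread each gave an adjusted p = 0.0545.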
